A study of Mus musculus with 13 samples.

Results

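The genes described here are 37 interferon-stimulated and interferon signalling genes, out of 37785 genes counted in each library. They were chosen by name: 3 interferon receptor chains, 4 signal transducers and interferon regulatory factors, 3 RNA sensors, and induced genes of the Ifit, oligoadenylate synthetase, TRIM and PARP families with their partners. The choice was made with earlier results of these data known. All 37 were found in the count files and all 37 passed the filter on low counts.

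Interferons are secreted proteins that bind paired receptor chains at the cell surface. Type I interferons act through Ifnar1 and Ifnar2, and Jak kinases bound to these chains phosphorylate Stat2, which joins Irf9 in the complex ISGF3 and enters the nucleus. ISGF3 binds the interferon-stimulated response element (ISRE) upstream of antiviral genes, whereas interferon gamma acts through Ifngr1 and Ifngr2 and the gamma-activated site (GAS). In the brain, microglia, endothelial cells, astrocytes and the oligodendrocyte lineage all carry type I receptors and respond to interferon.

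The study measured total RNA of brain cells from wild-type C57BL/6 mice after magnetic sorting with beads against Pdgfra, a receptor of oligodendrocyte precursor cells (OPCs) that perivascular fibroblasts carry too. Libraries came from embryonic day 16 (E16, 3), postnatal day 12 (P12, 3), P80 (3) and P310 (4), and were made with the Pico version (v2) of the SMARTer Stranded kit, meant for small inputs of RNA. The age field gives 81 days for some P80 mice and a few days under 310 for the oldest mice. Myelin debris was removed with beads before the sort at P80 and P310 only, so age and this step cannot be told apart between P12 and P80. The labels name no transgene and no treatment at any age, and the series gives 3 to 4 mice for each time point. P12 replicates 2 and 3 were much closer to each other than replicates of this study otherwise are (chi-square per degree of freedom 2.355, against 17.92 to 185.2 for the other 14 pairs). They were summed and counted as 1 sample, which left 12 samples with 2 at P12.

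Library totals ran from 8669521 to 25810455 counts. By these raw totals, the 3 counts which a count of 0 allows equal 0.116 to 0.346 CPM (counts scaled by library size), a limit for counting error only. The CPM values below are scaled further (TMM) with P12 replicates 2 and 3 summed, so this limit holds for them only roughly. Mitochondrial transcripts took 1.52 to 3.54% of counts at E16, 4.44 to 10.8% at P12, 12.8 to 23.5% at P80 and 18.3 to 34.4% at P310. Pdgfra itself was present in every sample, at 13.7 to 93.6 CPM, and Cspg4 at 9.57 to 116 CPM. Other OPC markers were low in some samples. Olig2 was at 4.32 to 7.48 CPM at E16, 12.6 to 15.8 at P12, 1.18 to 7.04 at P80 and 0.132 to 12.5 at P310. Sox10 was at 1.58 to 4.54, 16.3 to 45.7, 4.56 to 6.92 and 1.02 to 58.1 CPM at the same ages. The fraction was mixed. The summed level of 10 OPC markers was 62.9 to 84.2 CPM at E16, 269 to 275 at P12, 146 to 203 at P80 and 102 to 248 at P310, while 8 endothelial markers summed to 38.9 to 62.7, 3797 to 4927, 4631 to 5541 and 3645 to 6966 CPM at the same ages. The 8 microglial markers summed to 78.3 to 114 CPM at E16, 866 to 917 at P12, 329 to 1116 at P80 and 265 to 1038 at P310. Immature neuron markers (8 genes) went the other way, from 4766 to 5577 CPM at E16 to 160 or less in each later sample. Oligodendrocyte markers stood apart in P310 replicate 2 (67251 CPM) and P12 replicate 1 (8178 CPM) against 60 to 908 CPM in the other 10 samples. Neu4 of the OPC list, Tmem212 of the ependymal list and 3 of the 8 genes of the leukocyte list had no count at E16; in no list was a marker without a count in all samples. In such bulk samples, fewer cells of a type and less RNA per cell cannot be told apart, and the part of these marker differences in the values that follow was not tested.

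**Figure D1:**
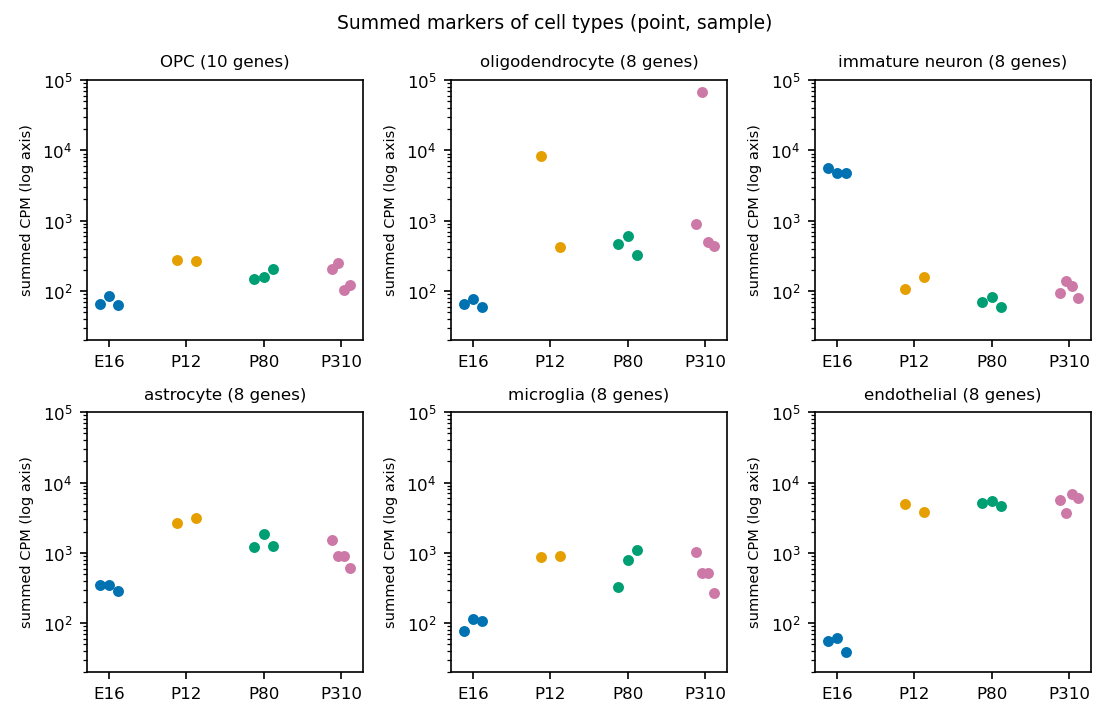
Summed CPM (log axis) of marker genes of 6 cell types at E16, P12, P80 and P310; each point is 1 sample. Endothelial, microglial and astrocyte markers are higher in every later sample than in any E16 sample, immature neuron markers are lower, and 2 samples stand apart in oligodendrocyte markers (8178 CPM at P12 and 67251 CPM at P310).

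Most of the interferon genes were scarce at E16, were higher by P12, and a subset was higher again at P80. Between E16 and P12, 30 of the 37 passed the test upward, none passed downward, and 7 did not pass. From P12 to P80, 9 passed upward: Stat2, Irf7, Ifit1, Ifit3, Ifit3b, Oas2, Oasl2, Parp14 and Ifi27. From P80 to P310 none passed in either direction. Each change below is a log2 fold change with its standard error (SE), and each adjusted p comes from edgeR's quasi-likelihood test with Benjamini-Hochberg adjustment over all 21170 genes tested, with 0.05 as threshold. Nothing in the labels beyond the count of mice says how the replicates were raised, so these p-values measure the spread between these samples.

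Over all genes tested, 16.7% passed upward and 10.5% downward from E16 to P12. The median change of the 37 was 2.81 in that step, beside 0.09 over all genes. This median stayed at 2.81 with Ifi44, which had no count at E16, set to its change from a floor of 3 counts over the E16 group. Both P12 samples lay above all 3 E16 samples for 34 of the 37, beside 30.9% of all genes. Ifit2, Adar and Ifi27l2a were the other 3. From P12 to P80 only 0.406% of all genes passed upward and 1.02% downward, and the 9 members are 9 of the 86 genes that passed upward. The median of the 37 in this step was 1.65 (-0.03 over all genes), and 29 of the 37 had every P80 sample above both P12 samples, beside 11.1% of all genes. Over all 4 ages in 1 test, 35 of the 37 passed, all but Adar and Oas3, beside 37.1% of all genes. As the list was chosen with earlier results of these data known, these comparisons describe it and do not test it.

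The second step rests on 2 samples at P12, and its count depends on them. No member passed without P12 replicate 1, 3 passed without the summed P12 replicates 2 and 3, 5 passed without P80 replicate 1, and 2 (Irf7 and Oas2) passed without P12 replicate 1 and P310 replicate 2, the 2 samples highest in oligodendrocyte markers. With P12 replicates 2 and 3 kept apart 20 members passed, and with the replicate number as a block beside that 15 passed. The count over all genes moved too, from 86 upward in the main run. It was 50 without P80 replicate 1 and 210 with P12 replicates 2 and 3 kept apart. All 9 genes had every P80 sample above both P12 samples, so leaving out 1 sample could not be expected to turn their sign. Without any 1 sample their changes ran from 1.22 (Stat2) to 4.14 (Ifit3).

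**Figure D2:**
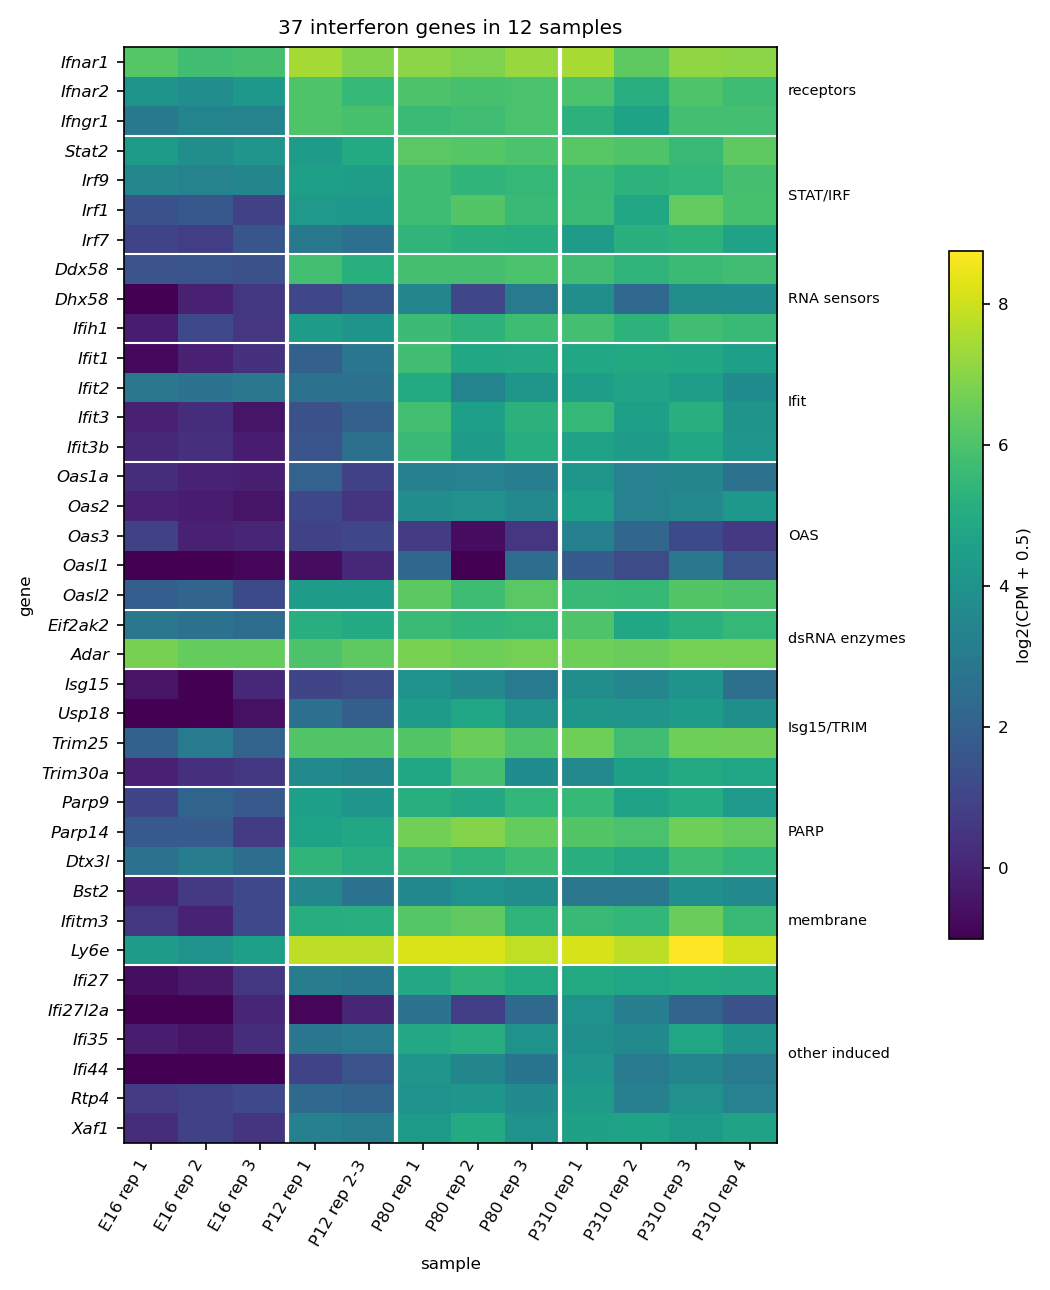
Level of each of the 37 genes, as log2(CPM + 0.5), in the 12 samples; rows are genes grouped by role and columns are samples by age. The dark E16 columns give way to lighter P12 columns for the 30 genes that rose, the 4 Ifit rows and those of Oas1a, Oas2 and Oasl2 lighten further at P80 while that of Oas3 does not, and Adar is light in every column.

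**Figure D3:**
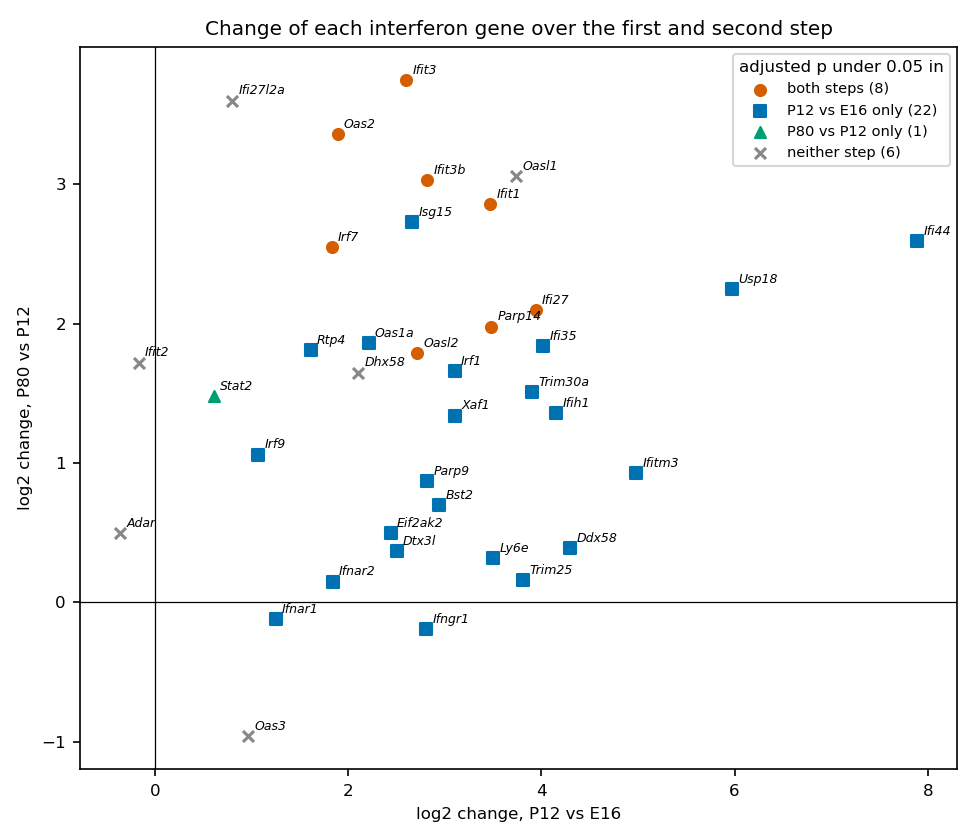
Log2 change from E16 to P12 (horizontal) against log2 change from P12 to P80 (vertical) for the 37 genes; symbols show in which step the adjusted p was under 0.05. The 8 genes that passed in both steps reach from 1.79 to 3.75 on the vertical axis, 22 passed in the first step only, Stat2 passed in the second only and 6 in neither.

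Promoter sequence is shown for 5 members because the ISRE is the element that ISGF3, which holds the members Stat2 and Irf9, binds. RefSeq windows (GRCm38.p6) of the 250 bases before the transcript start were matched for 28 of the 37 genes; Dhx58, Oas2, Usp18, Parp9, Parp14, Ly6e, Ifi27, Ifi27l2a and Rtp4 had no entry. The letters GAAANNGAAA, on either strand, were found in 9 of the 28 (32.1%) and in 3.46% of 27025 genes searched the same way. These 9 were Stat2, Ifit1, Ifit3, Ifit3b, Oas1a, Oas3, Isg15, Trim30a and Bst2. The GAS letters TTCNNNGAA, which read the same on both strands, were found in 6 of the 28 (21.4%) and in 8.13% of all genes. Matches to the first motif may overlap each other, and in 1 of the 2 members with both motifs they shared bases. Of the 9 members that rose from P12 to P80, 6 had a promoter entry and 4 of these held the first motif. So did 5 of the other 22 members with an entry. Ifit3 and Ifit3b, both among the 4, have identical printed windows and do not count as independent. The members were chosen as interferon genes, and no test of these shares was run. A match describes letters only. The windows below run 5′ to 3′ on the gene's strand with matches in capitals:
Stat2 (chr10:128270248-128270337, plus strand): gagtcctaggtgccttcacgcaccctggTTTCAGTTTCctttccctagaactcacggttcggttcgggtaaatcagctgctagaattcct
Ifit1 (chr19:34640754-34640843, plus strand): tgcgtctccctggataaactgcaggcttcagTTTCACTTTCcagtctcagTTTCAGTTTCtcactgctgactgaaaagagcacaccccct
Ifit3 (chr19:34583357-34583446, plus strand): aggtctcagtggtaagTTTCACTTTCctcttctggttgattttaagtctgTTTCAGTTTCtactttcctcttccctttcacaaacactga
Ifit3b (chr19:34607753-34607842, plus strand): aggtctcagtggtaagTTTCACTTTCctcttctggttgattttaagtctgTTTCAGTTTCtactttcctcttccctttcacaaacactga
Isg15 (chr4:156200845-156200934, minus strand): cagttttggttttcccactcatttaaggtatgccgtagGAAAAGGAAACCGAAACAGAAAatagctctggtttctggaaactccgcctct
The Ifit3 and Ifit3b windows had 0 differences in 90 bases. Stat2 held 1 match, Ifit1, Ifit3 and Ifit3b 2 each, and Isg15 3 that overlap.

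All 3 receptor chains among the members rose from E16 to P12 and then stayed level within their spread. Ifnar1, the type I receptor chain that binds Tyk2, measured 72.3, 54.1 and 58 CPM at E16, 172 and 119 at P12, 133, 115 and 153 at P80, and 179, 80.1, 140 and 133 at P310. The E16 samples were the lowest and the 3 later ages overlapped. It rose by 1.25 ± 0.29 (adjusted p = 0.00506; 0.0757 without P12 replicate 1), and the step to P80 was -0.12 ± 0.29 (adjusted p = 0.967). Ifnar2, the chain that binds Jak1, was at 16.1, 13.2 and 17.9 CPM at E16, 66.9 and 46 at P12, 65.1, 60.6 and 61.6 at P80, and 62.8, 34.9, 67.1 and 52.2 at P310. The gap between E16 and every later sample was clear, with P310 replicate 2 the lowest of the later ones. The first step was 1.84 ± 0.29 (adjusted p = 0.000212) and the second 0.15 ± 0.29 (adjusted p = 0.958). Ifngr1, the ligand-binding chain for interferon gamma, went from 7.2, 9.95 and 9.79 CPM at E16 to 66.9 and 59.4 at P12, then 50, 54.1 and 61.8 at P80 and 38, 24.6, 57.2 and 56.8 at P310. Here too E16 stood alone, and P310 spread most. It rose by 2.81 ± 0.33 (adjusted p = 1.61e-05), with -0.19 ± 0.33 (adjusted p = 0.948) in the second step. Ifngr2, its partner chain, is not a member and was added after its values were seen. It went the other way, with 42.2 to 50.1 CPM at E16, 24 to 32.2 at P12, 10.3 to 21.4 at P80 and 6.38 to 24.2 at P310. Neither step passed (-0.74 ± 0.47, adjusted p = 0.271, and -0.82 ± 0.46, adjusted p = 0.643), but the test over all ages did (adjusted p = 0.00738).

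Of the signal transducers and interferon regulatory factors, 3 of 4 rose from E16 to P12 and 2 of 4 from P12 to P80. All 4 had every P80 sample above both P12 samples. Stat2, the transducer specific to type I and III signalling, measured 19.6, 13.8 and 16.3 CPM at E16, 20.3 and 30.3 at P12, 76.8, 71.8 and 63.4 at P80, and 75, 67.3, 47.6 and 80.3 at P310. It differed from the receptors in that the P12 samples sat just above E16 and well below each adult sample. The first step was 0.61 ± 0.28 (adjusted p = 0.119), and the second a rise of 1.48 ± 0.29 (adjusted p = 0.0183), which makes it the 1 member that passed in the second step only; whether its 2 steps differ was not tested. Irf9, the DNA-binding partner of Stat2, had 10.9, 9.89 and 10.7 CPM at E16, 22.5 and 21.6 at P12, 52.4, 41.1 and 44.9 at P80, and 47.1, 39.5, 44 and 58.2 at P310. The 3 levels E16, P12 and adult did not overlap. It rose by 1.07 ± 0.25 (adjusted p = 0.00511) in the first step, and the second, 1.06 ± 0.26, missed the threshold (adjusted p = 0.0653).

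Irf1, a factor induced by interferon gamma, measured 2.23, 2.71 and 1.36 CPM at E16, 18.2 and 17.8 at P12, 51.8, 70.4 and 48.3 at P80, and 49.4, 28.2, 84.4 and 59.2 at P310. Its adult samples were all above P12, with P310 replicate 2 the lowest of them. The first rise was 3.10 ± 0.41 (adjusted p = 4.72e-05), and the second step, 1.66 ± 0.41, did not pass (adjusted p = 0.069). Irf7, the factor that amplifies type I interferon production, went from 1.44, 1.27 and 2.54 CPM at E16 to 7.15 and 5.39 at P12, 40.7, 35.8 and 33.1 at P80 and 20.5, 36.4, 38.6 and 24.4 at P310. No P12 sample reached any adult sample, and P80 overlapped the higher P310 samples. It rose in both steps, by 1.83 ± 0.39 (adjusted p = 0.00247) and by 2.55 ± 0.41 (adjusted p = 0.00549).

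The RNA sensors are cytosolic helicases that recognise viral RNA, and 2 of the 3 were among the members with the steepest first step. Ddx58, which encodes the sensor RIG-I, stood at 2.3, 2.41 and 2.18 CPM in the E16 samples, 54.9 and 36.1 at P12, 57.8, 57.6 and 63.7 at P80, and 54, 39.6, 49.4 and 53.2 at P310. Its E16 samples were nearly equal, and P12 overlapped P310. It rose by 4.30 ± 0.28 (adjusted p = 3.97e-08), against 0.39 ± 0.26 (adjusted p = 0.727) from P12 to P80. Ifih1, which encodes the long double-stranded RNA sensor MDA5, had 0.36, 1.75 and 0.943 CPM at E16, 20.6 and 16.2 at P12, 50.7, 39.2 and 51.7 at P80, and 56.9, 39, 53.9 and 46.9 at P310. Each adult sample was above both P12 samples, yet the second step, 1.36 ± 0.41, did not pass (adjusted p = 0.171), after a first rise of 4.15 ± 0.43 (adjusted p = 4.51e-06). Dhx58, whose product LGP2 regulates the other sensors, was low and uneven: 0, 0.422 and 1 CPM at E16, 1.62 and 2.57 at P12, 10.6, 1.61 and 7.58 at P80, and 13.5, 4.51, 13.5 and 13.1 at P310. P80 replicate 2 was as low as the P12 samples. Neither step passed (2.10 ± 0.95, adjusted p = 0.118, and 1.65 ± 0.95, adjusted p = 0.658), but the test over all ages did (adjusted p = 0.00582).

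Ifit proteins bind the capped or triphosphate ends of foreign RNA, and this family had the highest median change of the 10 role groups from P12 to P80 (2.94). Of its 4 members, 3 rose in both steps. Ifit1 measured 0.072, 0.422 and 0.825 CPM at E16, 3.48 and 6.59 at P12, 53.2, 28.4 and 28.9 at P80, and 27.3, 30, 27.3 and 22.2 at P310. The P12 samples were intermediate, and P80 replicate 1 was the highest sample of all. It rose by 3.47 ± 0.57 (adjusted p = 0.000312) and then by 2.86 ± 0.56 (adjusted p = 0.0168). Ifit3 of the same gene cluster went from 0.432, 0.724 and 0.236 CPM at E16 to 2.18 and 3.48 at P12, 55.8, 22 and 38 at P80, and 44.5, 22.1, 35.1 and 16 at P310. Even its lowest adult sample was several-fold above P12. The second rise, 3.75 ± 0.59 (adjusted p = 0.00436), exceeded the first, 2.60 ± 0.57 (adjusted p = 0.00313; 0.053 in limma-voom), without a test of that difference. Ifit3b, its neighbouring copy, had 0.576, 0.784 and 0.354 CPM at E16, 2.49 and 5.6 at P12, 46.7, 20.4 and 33.2 at P80, and 24.4, 20.3, 27.7 and 17 at P310. The order of the P80 samples was the same as for Ifit3. Its rises were 2.82 ± 0.49 (adjusted p = 0.000547) and 3.03 ± 0.50 (adjusted p = 0.00625). Transcripts of the 2 genes share sequence: 51.2% of the 50-base stretches of Ifit3 also occur in Ifit3b. As the counting kept reads with several matches, the 2 values are not independent. Ifit2 stayed at 5.75 to 6.84 CPM at E16 and P12 and was at 10 to 30.3 CPM in the adult samples; neither step passed (-0.17 ± 0.44, adjusted p = 0.82, and 1.72 ± 0.47, adjusted p = 0.108).

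In the oligoadenylate synthetase family, the active enzymes make 2-5A, which activates RNase L. Of its 5 members here, 3 rose from E16 to P12 and 2 from P12 to P80. Oasl2, a synthetase-like family member, measured 3.31, 3.98 and 1.77 CPM at E16, 20 and 19.6 at P12, 78, 51.8 and 76 at P80, and 47.1, 46.4, 69.4 and 64 at P310. The 2 P12 samples were alike and lay between E16 and the adult samples. It rose by 2.71 ± 0.34 (adjusted p = 2.54e-05) and by 1.79 ± 0.35 (adjusted p = 0.0165). Oas2 had 0.432, 0.362 and 0.236 CPM at E16, 1.68 and 0.933 at P12, 13.1, 14.9 and 11.6 at P80, and 22.3, 9.57, 11.7 and 18 at P310. Its P12 samples were closer to E16 than to the adult samples. The first rise, 1.89 ± 0.54 (adjusted p = 0.0172), ended as a call in 5 of 23 alternative settings (adjusted p up to 0.14), and the second was 3.36 ± 0.55 (adjusted p = 0.00594). Oas1a, an enzymatically active family member, went from 0.72, 0.483 and 0.413 CPM at E16 to 3.67 and 1.4 at P12, 9.25, 9.63 and 8.48 at P80, and 17.4, 9.57, 10.7 and 5.69 at P310. The P12 pair differed more than in most members, and no adult sample overlapped them. It rose by 2.21 ± 0.60 (adjusted p = 0.0131; 0.189 at most over the alternatives), with 1.86 ± 0.61 (adjusted p = 0.223) in the second step. Of its 50-base stretches 57.6% occur in Oas1g too. Oas3 and Oasl1 stayed low, at 0.124 to 9.37 and 0 to 7.04 CPM, and passed in neither step. Oasl1 had 1 count at E16 and 30 at P12, a ratio of 22.5 with an exact counting interval of 3.74 to 918.

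Eif2ak2 and Adar both bind double-stranded RNA. Eif2ak2, which encodes the kinase PKR that blocks translation, had 6.98, 5.91 and 4.89 CPM at E16, 34 and 30.3 at P12, 49, 42 and 45.2 at P80, and 66.5, 28.2, 37.1 and 44.2 at P310. The E16 samples were lowest, every P80 sample was above both P12 samples, and P310 overlapped both of those ages. The first step was a rise of 2.44 ± 0.33 (adjusted p = 5.89e-05), and the second was 0.50 ± 0.33 (adjusted p = 0.735). Adar, the editing enzyme that turns adenosine into inosine, measured 106, 86.9 and 87.4 CPM at E16, 64.7 and 81 at P12, 109, 95.5 and 105 at P80, and 97.1, 90.4, 105 and 105 at P310. The P12 samples were lowest, and the other ages overlapped. Its steps of -0.36 ± 0.21 (adjusted p = 0.216) and 0.50 ± 0.21 (adjusted p = 0.414) did not pass, nor did the test over all ages (adjusted p = 0.23). Adar shares 16.8% of its exon bases with Chrnb2 on the opposite strand, and the counting did not use strand, so reads of the 2 genes cannot be told apart there.

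All 4 genes of the Isg15 pathway and TRIM group rose from E16 to P12, and none passed from P12 to P80. Trim25, a ubiquitin ligase that activates RIG-I, measured 3.53, 7.3 and 3.83 CPM at E16, 68.7 and 68.4 at P12, 70.9, 93 and 66.3 at P80, and 97, 54.2, 95.6 and 98.2 at P310. P12 already overlapped P80, and P310 replicate 2 was the lowest sample after E16. It rose by 3.81 ± 0.35 (adjusted p = 1.09e-06), with 0.16 ± 0.33 (adjusted p = 0.958) after that. Usp18, the protease that removes Isg15 and dampens Ifnar2 signalling, had 0, 0 and 0.177 CPM at E16, 5.47 and 3.37 at P12, 20.4, 26.6 and 15.8 at P80, and 17.3, 16.5, 20 and 14 at P310. Its ages separated into 3 levels. The 3 E16 samples held 3 counts and the P12 samples 247, a ratio of 61.8 with an exact counting interval of 20.9 to 302; the first step passed (adjusted p = 1.99e-05) and the second, 2.25 ± 0.56, did not (adjusted p = 0.0707). Trim30a, a regulator of Toll-like receptor signalling, went from 0.432, 0.784 and 1 CPM at E16 to 12.1 and 10.5 at P12, 27.3, 56.4 and 12.9 at P80, and 11.7, 22.7, 30.7 and 26.6 at P310. P80 spread widely and P310 replicate 1 fell between the P12 samples. The rise at P12 was 3.90 ± 0.59 (adjusted p = 0.000162), and the next step 1.51 ± 0.56 (adjusted p = 0.325). Isg15, the ubiquitin-like modifier itself, ran from 0 to 0.59 CPM at E16, 1.56 to 1.93 at P12, 7.86 to 15.8 at P80 and 5.52 to 16 at P310. It rose by 2.66 ± 0.81 (adjusted p = 0.0241; up to 0.108 over the alternatives), and its second step was 2.73 ± 0.80 (adjusted p = 0.156).

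Parp9, Parp14 and Dtx3l lie next to each other on chromosome 16 and all rose from E16 to P12; Parp14 alone of them passed from P12 to P80. Parp14, a mono-ADP-ribosyl transferase, measured 2.88, 2.96 and 1.18 CPM at E16, 24.5 and 27.7 at P12, 101, 122 and 87.2 at P80, and 70.6, 61.8, 95.9 and 84.1 at P310. The adult samples were all more than double the P12 samples. Its rises were 3.48 ± 0.34 (adjusted p = 2.39e-06) and 1.98 ± 0.35 (adjusted p = 0.00854). Dtx3l, the ubiquitin ligase that pairs with Parp9, had 5.83, 8.39 and 5.31 CPM at E16, 40.7 and 33 at P12, 50.1, 40 and 52.4 at P80, and 36.2, 28.7, 53 and 43.3 at P310. P12 overlapped both adult ages. It rose by 2.50 ± 0.31 (adjusted p = 2.68e-05), with 0.37 ± 0.31 (adjusted p = 0.837) to P80. Parp9 went from 1.58, 3.92 and 2.83 CPM at E16 to 22.5 and 17.1 at P12, 35.3, 29.4 and 43.5 at P80, and 46.1, 24.4, 31.7 and 19.1 at P310. P80 cleared P12 while P310 overlapped it. The first rise was 2.82 ± 0.42 (adjusted p = 0.000154) and the second step 0.87 ± 0.42 (adjusted p = 0.545). Parp9 and Dtx3l share 458 exon bases on opposite strands, where reads counted for both.

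The 3 membrane restriction factors, which hinder virus entry or release, rose from E16 to P12, and none passed after that. Ly6e, a GPI-anchored protein, measured 19.8, 15.6 and 22.4 CPM at E16, 219 and 217 at P12, 296, 297 and 227 at P80, and 286, 222, 431 and 270 at P310. E16 stood far below every later sample, and P310 replicate 3 was highest. It rose by 3.50 ± 0.28 (adjusted p = 2.69e-07), with 0.32 ± 0.27 (adjusted p = 0.833) in the second step. Ifitm3, which blocks fusion of virus in endosomes, had 1.01, 0.483 and 1.71 CPM at E16, 33.2 and 34.9 at P12, 72, 82.1 and 40.1 at P80, and 48.6, 43, 92.3 and 48.4 at P310. All adult samples were above P12, with P310 replicate 3 the highest. The rise of 4.98 ± 0.49 (adjusted p = 2.18e-06) was followed by 0.93 ± 0.44 (adjusted p = 0.517). Bst2, which tethers budding virus, went from 0.432, 1.09 and 1.71 CPM at E16 to 10.8 and 6.02 at P12, 11.3, 15.7 and 13.8 at P80, and 6.86, 6.82, 14.4 and 12.2 at P310. P310 overlapped P12. Its first step was a rise of 2.94 ± 0.57 (adjusted p = 0.00125), and its second 0.70 ± 0.55 (adjusted p = 0.816). Per kilobase of exon, Ifitm3 and Ly6e had the highest mean levels of the 37 at P80, at 95.5 and 72.2 CPM per kb, whereas Adar and Ifnar1 were highest at E16, at 11.5 and 10.5 CPM per kb. Ifitm3 and Ly6e, like most members, rose in the step in which the endothelial marker sum rose (38.9 to 62.7 against 3797 to 4927 CPM). Sums of astrocyte (289 to 353 against 2703 to 3165 CPM), microglial (78.3 to 114 against 866 to 917 CPM) and mural markers (179 to 266 against 926 to 1203 CPM) rose too. Both neuron sums were lower at P12. The part of any of these sums in the rise of Ifitm3 and Ly6e was not tested.

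Of the 6 other induced genes, 5 rose from E16 to P12 and Ifi27 rose again at P80. Ifi27, an interferon-induced mitochondrial protein, measured 0.144, 0.302 and 1 CPM at E16, 8.27 and 7.12 at P12, 29.3, 39.2 and 30.8 at P80, and 30.5, 26.9, 30.7 and 29 at P310. Its P310 samples were close together and all above P12. The rises were 3.94 ± 0.50 (adjusted p = 3.1e-05) and 2.10 ± 0.47 (adjusted p = 0.0406); the latter passed in 14 of 23 alternative settings. Xaf1, an inhibitor of the apoptosis blocker XIAP, had 0.72, 1.39 and 0.884 CPM at E16, 9.14 and 8.23 at P12, 19.5, 31 and 15.4 at P80, and 23.6, 24.9, 19.3 and 24.1 at P310. No P12 sample overlapped another age. It rose by 3.11 ± 0.41 (adjusted p = 4.31e-05), and the second step was 1.34 ± 0.40 (adjusted p = 0.168). Ifi35, a partner of Nmi in innate signalling, went from 0.36, 0.241 and 0.708 CPM at E16 to 6.59 and 7.89 at P12, 28.8, 33.3 and 15.8 at P80, and 14.3, 12.1, 25.8 and 16.2 at P310. P80 and P310 overlapped, both above P12. The first step was a rise of 4.02 ± 0.52 (adjusted p = 3.96e-05), and the second, 1.84 ± 0.49, did not pass (adjusted p = 0.1).

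Ifi44 had no count in the 3 E16 samples and 1.43 to 2.29 CPM at P12. Its P12 mean was 29.4-fold above a floor of 3 counts over the E16 group, which allows for counting error at E16 only. Ifi44 reached 6.47 to 16.7 CPM at P80 and 7.37 to 16.8 at P310, and the second step did not pass (2.59 ± 0.65, adjusted p = 0.0855). Rtp4, a chaperone of membrane receptors, covered 1.15 to 1.71 CPM at E16, 4.01 to 4.6 at P12, 12.7 to 16.8 at P80 and 8.91 to 20.7 at P310. It rose by 1.61 ± 0.46 (adjusted p = 0.016; up to 0.078 over the alternatives), and the next step, 1.81 ± 0.47, did not pass (adjusted p = 0.0902). Ifi27l2a, a relative of Ifi27, covered 0 to 0.531 CPM at E16, 0.0622 to 0.53 at P12, 1.24 to 6.08 at P80 and 2.21 to 15.7 at P310. It overlapped between E16 and P12 and passed in neither step, but passed over all ages (adjusted p = 0.00774).

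**Figure D4:**
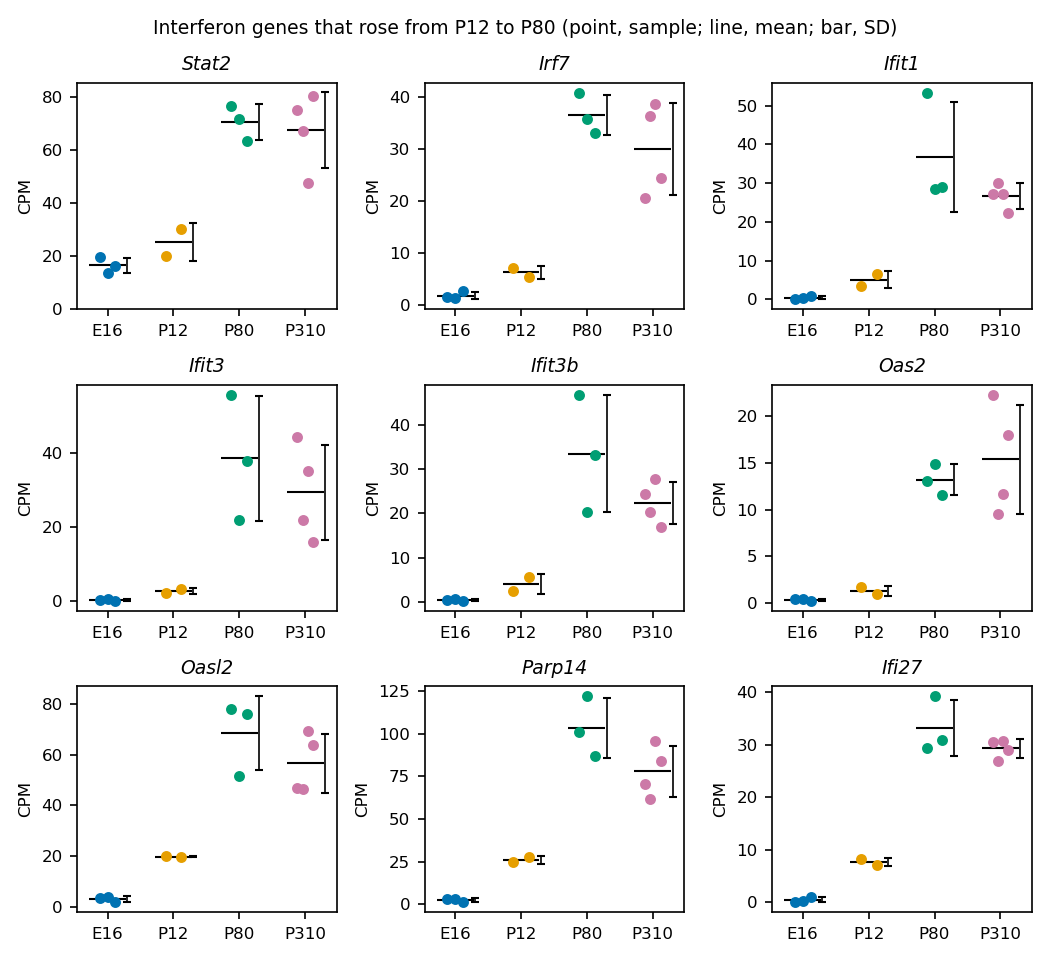
CPM of the 9 genes that rose from P12 to P80, at the 4 ages; points are samples (3, 2, 3 and 4), the line is the mean and the bar is 1 SD each way. Both P12 samples of each gene lie below every P80 and P310 sample, and P80 replicate 1 is the highest P80 sample for Stat2, Irf7, Ifit1, Ifit3, Ifit3b and Oasl2.

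Several marker sums that separated E16 from P12 overlapped between P12 and P80. Endothelial markers lay at 3797 to 4927 and 4631 to 5541 CPM, microglial markers at 866 to 917 and 329 to 1116 CPM, and mural markers at 926 to 1203 and 1028 to 1385 CPM. P80 replicate 1, with the highest Ifit1, Ifit3 and Ifit3b of the 3 P80 samples, had the lowest sums of microglial (329 CPM), OPC (146), astrocyte (1211), leukocyte (74), mural (1028), ependymal (906) and erythroid (256) markers among them, and the highest fibroblast sum (495). Other sums were lower in every P80 sample than at P12. OPC markers were at 269 to 275 and then 146 to 203 CPM, astrocyte markers at 2703 to 3165 and then 1211 to 1847 CPM, and fibroblast markers at 1048 to 1796 and then 256 to 495 CPM. Immature neuron (107 to 160, then 58.3 to 82 CPM) and erythroid markers (3217 to 3897, then 256 to 2346 CPM) were lower too, and the part of these sums in the second step was not tested. Leukocyte markers summed to 76.1 to 89.1 CPM at P12 and 74 to 137 CPM at P80.

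Between P80 and P310 the interferon genes showed no change that passed the test. None of the 37 passed upward or downward in edgeR, where 0% of all genes passed upward and 0% downward, and DESeq2 and limma-voom called 0 members in each direction as well. At an unadjusted p under 0.05 there was 1 member, Oas3 (2.39 ± 0.96, unadjusted p = 0.0252, adjusted p = 0.871). Its 3 P80 samples measured 1.14, 0.124 and 0.974 CPM and the 4 P310 samples 9.37, 4.18, 1.78 and 1.02 CPM. P310 replicate 4 lay within the P80 range. The median change of the 37 was -0.12, beside 0.03 over all genes, and 32 of them were within 0.5 of 0. No member had all P310 samples above all P80 samples, a separation that 2.27% of all genes had. Ddx58 was the 1 member with every P310 sample below every P80 sample, by -0.28 ± 0.21 (adjusted p = 0.906).

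The precision of this comparison differed by gene. SEs ran from 0.17 (Adar) to 1.05 (Oasl1) with a median of 0.35. The 95% intervals use a normal approximation, which makes them narrower than the test itself would give. For 22 of the 37 this approximate 95% interval lay within 1 log2 unit of 0. For Stat2 (-0.07 ± 0.23), Irf9 (0.03 ± 0.21) and Ly6e (0.15 ± 0.22) a doubling would lie outside that interval. The lowest values were those of Ifi35 (-0.60 ± 0.38, 95% interval -1.35 to 0.15) and Ifit3b (-0.58 ± 0.37, -1.30 to 0.14). For Oas3, Oasl1, Dhx58 and Ifi27l2a even a change of several-fold would not have been detectable with their SEs (0.96, 1.05, 0.76 and 0.99). P310 replicate 2, which held 67251 CPM of oligodendrocyte markers, was the lowest P310 sample for most of the 37, all 3 receptors included. For Stat2, Irf7 and the 4 Ifit genes, among others, another P310 sample was the lowest. Without P310 replicate 2 the count of members from P80 to P310 remained 0 in each direction. The median change was then -0.03, beside -0.12 with it, and the part of its marker difference in this was not tested.

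**Figure D5:**
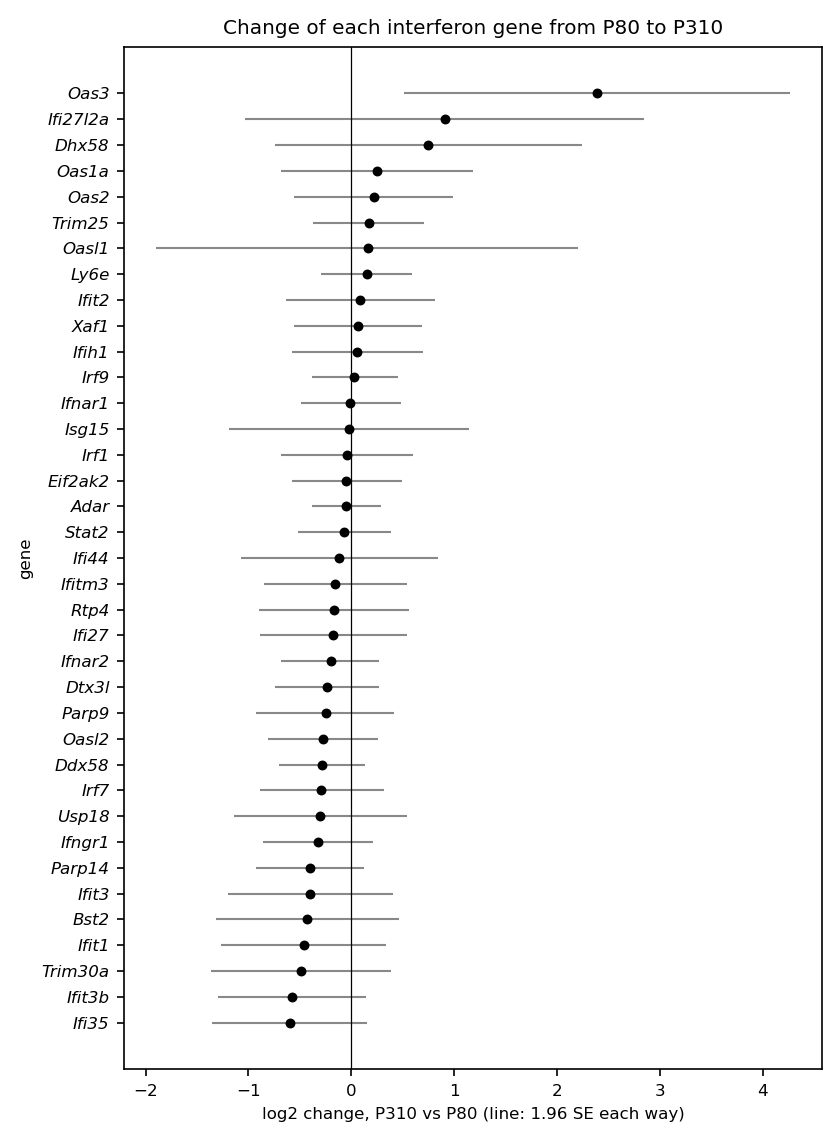
Log2 change from P80 to P310 for each of the 37 genes, sorted. Points are edgeR estimates and lines are 95% intervals by a normal approximation, narrower than the test itself would give. All lines but that of Oas3 cross 0, and 32 of the 37 points lie within 0.5 of 0.

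Ligand transcripts were close to absent. Of 21 interferon ligand genes 12 had no count in any sample, and the 15 alpha and beta genes held 6 counts in all 12 samples together. Ifnb1 had 0 counts and Ifng 1. Ifnk, an interferon known from skin, was the 1 ligand with enough counts for a test (138 in all samples). The other ligands were near or under what this depth can detect, and RNA of cells outside the sorted fraction was not measured.

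The other genes of the pathway are a list of 87, ligands included, of which 67 could be tested. From E16 to P12, 42 rose, 0 passed downward and 25 did not pass, with a median of 2.07. The 4 with the lowest adjusted p were Rnf213, a large ubiquitin ligase (3.97 ± 0.22, adjusted p = 1.24e-08), the helicase Helz2 (5.06 ± 0.37, adjusted p = 1.2e-07), the secreted galectin-binding protein Lgals3bp (4.36 ± 0.38, adjusted p = 7.64e-07) and Zc3hav1, the CpG-rich RNA binder ZAP (4.23 ± 0.38, adjusted p = 9e-07). Mx2, an antiviral GTPase chosen after its values were seen, had no count at E16. Its P12 mean was 33.3-fold above a floor of 3 counts over the E16 group. From P12 to P80, 5 rose and 0 fell, with a median of 0.72: Rnf213 again (1.54 ± 0.22, adjusted p = 0.00253), the nuclear body protein Sp100 (1.88 ± 0.36, adjusted p = 0.015), Helz2 (1.53 ± 0.34, adjusted p = 0.0385), Uba7, the activating enzyme for Isg15 (2.01 ± 0.46, adjusted p = 0.0422), and Samhd1, the dNTP hydrolase (0.90 ± 0.21, adjusted p = 0.0448). From P80 to P310 none of the 67 passed in edgeR, and 0 had an unadjusted p under 0.05, while 48 passed over all ages.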

How the data were processed

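Counts per gene were deposited by the authors for 13 libraries. Per the file headers, reads were counted with featureCounts 1.5.0-p1 on an Ensembl release 92 annotation, without strand, with reads that match several places or genes counted for each, and with a minimum overlap of 10 bases. Per the submitters' processing notes, Trim Galore and TopHat2 2.1.1 were used with GRCm38 (mm10). Symbols came from GENCODE M21, which named 37715 of 37785 genes. P12 replicates 2 and 3 were summed. Genes were kept by filterByExpr by age (21170), scaled by TMM, and tested with edgeR 4.0.16 (R 4.3.3), a quasi-likelihood fit over all 4 ages without covariates. CPM values use the same scaling. Contrasts were P12 against E16, P80 against P12, P310 against P80, and all ages. The method was tested on simulated counts with 200 changed genes per step, chosen above a minimum level. Of 4-fold changes it recovered 41% from E16 to P12, 48% from P12 to P80 and 68% from P80 to P310. For 16-fold changes the shares were 81, 96 and 97%. Of each role group, the 3 members with the lowest adjusted p over all ages and every member called at P80 or P310 are given in full, and of the pathway list 4 per step. The 37 members and the gene lists were chosen with earlier results of these data known. Alternatives included other size factors and filters, DESeq2 1.42.0, limma-voom (limma 3.58.1), a replicate block, and leaving out each sample. All are covered in the closing section.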

Additional observations from a re-analysis of the deposited data

Results flagged for a closer look

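In the 4 P310 samples, 3 of the 37 members and 1 of 12 marker sums had a sample far from the others, measured as its gap to the nearest sample over the whole range, and past the 95% critical value of Dixon's test (chance alone marks about 1 in 20 groups). Dhx58 was lowest in replicate 2, at 4.51 CPM against 13.1 to 13.5 in the others (0.958). Trim25 was lowest in the same replicate, at 54.2 against 95.6 to 98.2 CPM (0.941). Ifitm3 was highest in replicate 3, at 92.3 against 43 to 48.6 CPM (0.887). The oligodendrocyte marker sum was highest in replicate 2, at 67251 against 440 to 908 CPM (0.993).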

How the results depend on the processing

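The count of members higher at P12 than E16 (30) ran from 25 without P12 replicate 1 to 32 without a low-count filter, and that over all ages (35) from 34 to 36. No member was lower in the first step, and none was called in either direction from P80 to P310, under any alternative run. Of the 30 calls, 24 held in all 23 alternatives; Ifnar1, Ifit3, Oas1a, Oas2, Isg15 and Rtp4 were lost in at least 1. The 9 members higher at P80 than P12 became 17 without a low-count filter, 20 in DESeq2, 15 in limma-voom with sample quality weights and 20 with P12 replicates 2 and 3 kept apart. With the replicate block the count was 15. Leaving out 1 sample gave 0 (without P12 replicate 1) to 12 (without P310 replicate 2); the lone P12 sample left is then assumed to vary like the other ages. The run without the 2 samples highest in oligodendrocyte markers was chosen after seeing the data and leaves 1 P12 sample. Its median change of the members was 1.63 in the second step (1.65 in the main run) and 2.76 in the first (2.81 in the main run). Over all genes the count from P12 to P80 moved too, from 86 upward in the main run. It was 259 without a low-count filter, 270 in DESeq2 and 210 with P12 replicates 2 and 3 kept apart. The cause of these shifts was not tested. Replicate numbers did not pair the samples: 3 of 18 same-numbered pairs had a correlation of deviations over 0.1 (-0.234 to 0.21), and 4 of 13 libraries correlated best with their own number. Counts at E16 were few for Oas3 (35), Oasl1 (1), Dhx58 (24), Ifi27l2a (9) and Ifi44 (0), as for some other members. The part of depth in their spread was not tested.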
